A study of Mus musculus with 6 samples.

Results

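The gelsolin family of actin-binding proteins was measured here as 7 genes, Scin, Gsn, Capg, Vil1, Avil, Flii and Svil. They were chosen by gene symbol, and the family was put together with results of these arrays known, on the fall of Scin. Each symbol matched 1 probe set of its own, so the family is 7 of 19937 genes measured, and 7 of the 21640 probe sets that carry a single symbol. Cells came from bone marrow of female C57BL/6 mice, all given pIC (polyinosinic-polycytidylic acid, which induces the Mx1 promoter) and killed on day 18. The groups were 3 mice with the genotype Cebpa flox/flox, which carry no Cre, and 3 mice with Cebpa flox/flox;Mx1Cre, in which Cre is driven by an interferon-responsive promoter that is active in many cell types besides blood progenitors. In both, PreGMs, early granulocyte-macrophage progenitors, were sorted as Lin-Sca1-Kit+ cells negative for CD150, CD41, FcgRII and endoglin. Effects of Cre itself and of losing Cebpa cannot be told apart, since no mouse carried Mx1Cre without the floxed gene.

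Gelsolin family proteins are built from repeats of a common fold that binds actin. When calcium rises, the severing members cut filaments and cap the barbed end, and binding of the membrane lipid PIP2 releases them. Gelsolin is the founding member, and scinderin, also called adseverin, is its close relative, known from secretory cells, where it clears cortical actin before exocytosis. In the blood system, adseverin is known from megakaryocytes and platelets. Capg caps filament ends without cutting them, villin and advillin add a headpiece that binds a further filament, flightless I joins the repeats to leucine-rich repeats, and supervillin, which also ends in a headpiece, ties actin and myosin to the membrane.

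Promoter windows from RefSeq (GRCm38.p6, 250 bases before to 50 after the annotated start, 300 bases each) matched 6 of the 7 genes, all but Svil. Because the mice were built to delete a C/EBP factor, the windows were searched on both strands for TTGCNNAA, the core of a C/EBP element. It occurs in 10.8% of all 32851 windows. Of the 6 genes only Avil held it, beginning 31 bases downstream of the start. The window of Scin, the gene with the largest difference in the family, held no match, nor did the windows of Gsn (3 starts), Capg, Vil1 and Flii. Scin and Avil are shown 5′ to 3′ in gene orientation, with the C/EBP letters in capitals. Scin lies on the minus strand at chr12:40134179-40134478, and Avil on the plus strand at chr10:127000459-127000758.
Scin: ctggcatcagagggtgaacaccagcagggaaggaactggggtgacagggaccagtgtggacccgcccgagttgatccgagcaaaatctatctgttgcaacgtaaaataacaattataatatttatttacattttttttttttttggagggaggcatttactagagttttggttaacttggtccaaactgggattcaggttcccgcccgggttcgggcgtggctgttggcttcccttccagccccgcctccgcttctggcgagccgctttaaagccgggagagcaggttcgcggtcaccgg
Avil: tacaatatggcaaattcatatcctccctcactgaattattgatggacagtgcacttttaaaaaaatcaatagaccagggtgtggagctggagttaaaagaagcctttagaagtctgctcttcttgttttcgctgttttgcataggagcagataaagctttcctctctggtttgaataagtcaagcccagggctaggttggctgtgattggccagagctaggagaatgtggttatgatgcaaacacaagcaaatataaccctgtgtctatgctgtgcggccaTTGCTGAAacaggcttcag

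The same windows were searched for GAGGAA, the core bound by PU.1, for AGATAA, the core bound by the Gata factors, for TGTGGT, a RUNX core, and for the SRF CArG box, an element of many actin genes. In that order they occur in 28.3%, 11.2%, 16.8% and 1.63% of all windows. Scin, Capg and Flii held none of the 4. Vil1 held the CArG box, Avil held the first 3 once each, and in Gsn 1 start held the PU.1 core and the other two the RUNX core. A match describes letters only, and a window without one says nothing about binding elsewhere.

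Values are log2 expression from RMA (robust multi-array average), and a difference is always the mean of the arrays labelled Mx1Cre minus that of the arrays labelled flox/flox. The 6 arrays had medians of 6.43 to 6.55. Cebpa ran against the labels. It read 6.93, 6.71 and 6.85 in the arrays labelled flox/flox and 8.71, 9.31 and 8.98 in those labelled Mx1Cre, and probe positions within the gene were not used here. Every direction below therefore follows the labels as deposited and would turn if they were exchanged. Kit, the stem cell factor receptor used in the sort, averaged 10.5 and 10.6 in the groups. Of 6 genes expressed by granulocyte-macrophage progenitors, Kit was not called and the other 5 were higher in the arrays labelled Mx1Cre, by 1.39-fold for Mpo, 2.01-fold for Cd34, 4.12-fold for Prtn3, 4.23-fold for Elane and 11.6-fold for Ctsg. Over all genes 2.63% were called higher. In sorted bulk cells, fewer cells of a kind and less RNA per cell cannot be told apart.

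Scin, the calcium-dependent severing protein, was far lower in the arrays labelled Mx1Cre. The arrays labelled flox/flox read 10.9, 10.6 and 10.7 for replicates 1, 2 and 3. The arrays labelled Mx1Cre read 7.34, 8.30 and 7.72. The groups stood apart by more than 2 log2 units, with the highest Mx1Cre array, replicate 2, still below every flox/flox array. Means were 10.7 ± 0.15 and 7.79 ± 0.49 (SD, n = 3 each), a difference of -2.94 ± 0.20 log2 units (limma SE), or 7.68-fold lower. No test is given for Scin, since this contrast brought the family in. Of 19937 genes, only 2 had a more negative difference. Even in the arrays labelled Mx1Cre, Scin stayed above the median level over genes, 6.64, so its lower values were not at the dim end of the array.

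Scin also varied most among the members within a label. Its pooled within-label SD was 0.36 log2 units, larger than in 99.0% of genes, and most of it came from the arrays labelled Mx1Cre. Leaving out 1 array at a time moved the difference between -3.20 (without Mx1Cre replicate 2) and -2.72 (without Mx1Cre replicate 1).

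**Figure D1:**
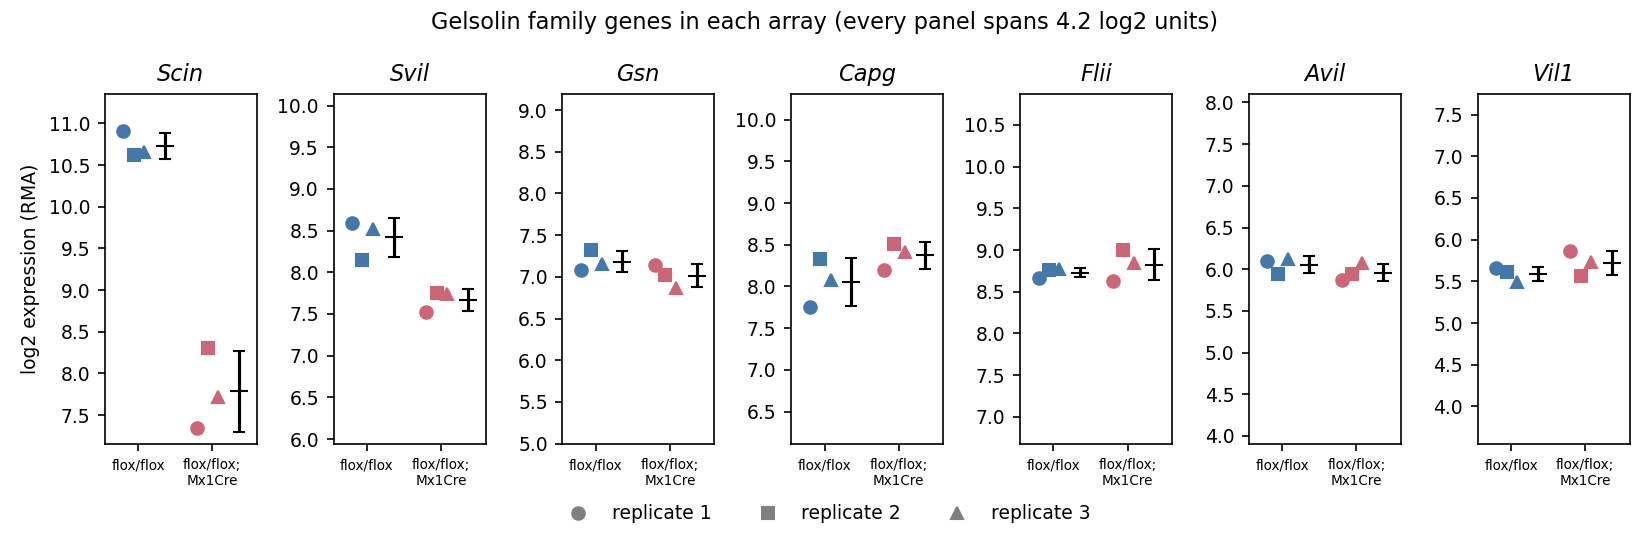
Log2 expression (vertical axes, each spanning the same 4.2 units) of the 7 genes in each array, by genotype label, with marker shape for the replicate and black bars for the mean ± SD of 3 arrays. Scin and Svil separate by label, and the other 5 genes overlap.

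Svil, which encodes supervillin, the membrane-linked member that binds both actin and myosin II, was the other member that fell. The arrays labelled flox/flox read 8.59, 8.14 and 8.52. The arrays labelled Mx1Cre read 7.52, 7.76 and 7.74. The groups did not overlap, and flox/flox replicate 2 lay nearest to the other group. Means were 8.42 ± 0.24 and 7.67 ± 0.13 (SD, n = 3 each), a difference of -0.75 ± 0.13 log2 units (limma SE, 95% interval -1.03 to -0.46), or 1.68-fold lower, with a limma adjusted p of 0.00861 over all genes. Among all genes 0.732% had a more negative difference. The call was lost when all 34760 probe sets entered the fit (limma adjusted p = 0.0879). An exact permutation test on 3 against 3 arrays cannot go below 0.1.

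Of the 6 relatives of Scin, then, Svil alone was called, at an adjusted p under 0.05, and 0 were called higher. Over all genes 4.91% were called, 2.63% higher and 2.28% lower, which is the background for that count of 1. The 6 split evenly in sign, 3 lower and 3 higher, with a median difference of -0.00037 log2 units beside -0.01 over all genes. The groups had separate ranges in 2 of the 7 members, Scin and Svil, and in 21.6% of all genes. The family was chosen with results of this contrast known, so these counts describe it and support nothing further.

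Gsn, gelsolin itself, differed little. The arrays labelled flox/flox read 7.08, 7.32 and 7.16, and those labelled Mx1Cre 7.15, 7.03 and 6.87. The ranges overlapped at Mx1Cre replicate 1. The difference was -0.17 log2 units (limma 95% interval -0.40 to 0.06, adjusted p = 0.501). Leaving out 1 array at a time gave -0.24 to -0.10. The interval leaves room for a fall of up to 0.40, well short of the difference of Scin. The single probe set does not separate the secreted from the cytoplasmic form of gelsolin, which come from different starts of the gene.

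Capg, the macrophage capping protein, had the largest positive difference in the family and did not pass. The arrays labelled flox/flox read 7.76, 8.33 and 8.08. The arrays labelled Mx1Cre read 8.20, 8.51 and 8.41. The ranges overlapped because flox/flox replicate 2 lay above Mx1Cre replicate 1. The difference was 0.32 ± 0.14 log2 units (limma SE, 95% interval -0.004 to 0.64, adjusted p = 0.312). Its within-label SD of 0.23 exceeded that of 92.2% of genes, and the lowest reading, flox/flox replicate 1, carried much of it. Without that array the difference was 0.17, the lowest of those that left out 1 array.

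Flii, the leucine-rich repeat member that also acts as a nuclear receptor coactivator, read 8.67, 8.76 and 8.77 in the arrays labelled flox/flox. In those labelled Mx1Cre it read 8.63, 9.0 and 8.85, on both sides of the other group. The difference was 0.09 log2 units (limma 95% interval -0.14 to 0.33, adjusted p = 0.773). It was 0.0087 without Mx1Cre replicate 2 and 0.19 without Mx1Cre replicate 1. The arrays labelled Mx1Cre spread more widely, with an SD of 0.18 against 0.056.

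Avil and Vil1, which like Svil end in a villin-type headpiece, were dim. Advillin is known from sensory neurons and villin from the brush border of gut and kidney epithelium. Avil ranged from 5.94 to 6.12 in the arrays labelled flox/flox and from 5.87 to 6.07 in those labelled Mx1Cre. Vil1 ranged from 5.49 to 5.66 and from 5.57 to 5.86. Both genes overlapped between labels. Their differences were -0.10 (limma 95% interval -0.31 to 0.12, adjusted p = 0.733) and 0.13 log2 units (-0.09 to 0.36, adjusted p = 0.624). Leaving out 1 array at a time gave -0.15 to -0.05 for Avil and 0.06 to 0.21 for Vil1. Their mean levels lay at 34.3% and 25.6% of the way up the ranking of all genes, and RMA compresses differences at such levels. Of 6 epithelial markers 2 were called, or 33.3% where 4.91% of all genes were. Both were lower in the arrays labelled Mx1Cre: Cdh1, the adhesion molecule E-cadherin, 1.91-fold, and Epcam 1.41-fold (limma adjusted p 0.00118 and 0.0304). Over all arrays Epcam, Cldn7 and Krt19 averaged 5.43, 6.02 and 5.28, whereas Krt8, Cdh1 and Krt18 averaged 7.13, 7.43 and 8.57, above the median level over genes.

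**Figure D2:**
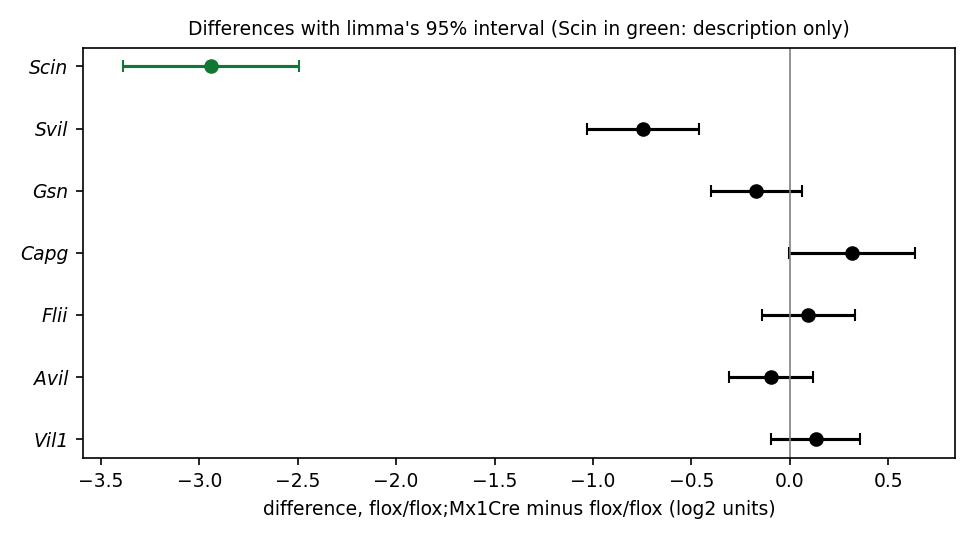
Difference of each member (horizontal axis, log2 units, Mx1Cre minus flox/flox) with limma's 95% interval over 6 arrays, Scin in green as a description. The intervals of Gsn, Capg, Flii, Avil and Vil1 include 0, and those of Scin and Svil lie below it.

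Genes whose profile over the 6 arrays came closest to that of Scin were Trgv1, Zfp711, Tox, Trat1 and Fcer1a. Likeness was the root mean square difference over 6 arrays after centring each gene on its own mean, and was 0.27 log2 units for Trgv1, 0.30 for Zfp711, 0.35 for Tox, 0.49 for Trat1 and 0.62 for Fcer1a. All 5 are a description, since they share the arrays and the contrast. Trgv1, a γ chain V segment of the T cell receptor, read 9.59, 9.45 and 9.40 in the arrays labelled flox/flox and 5.44, 6.51 and 6.20 in those labelled Mx1Cre, so that, as for Scin, flox/flox replicate 1 and Mx1Cre replicate 2 were the highest of their groups. Fcer1a, the α chain of the IgE receptor of mast cells and basophils, had the same arrays on top, at 7.79 and 6.27. Tox, a factor of lymphoid development, was tighter in the arrays labelled Mx1Cre (7.47, 7.35 and 7.77), and there replicate 2 was the lowest.

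**Figure D3:**
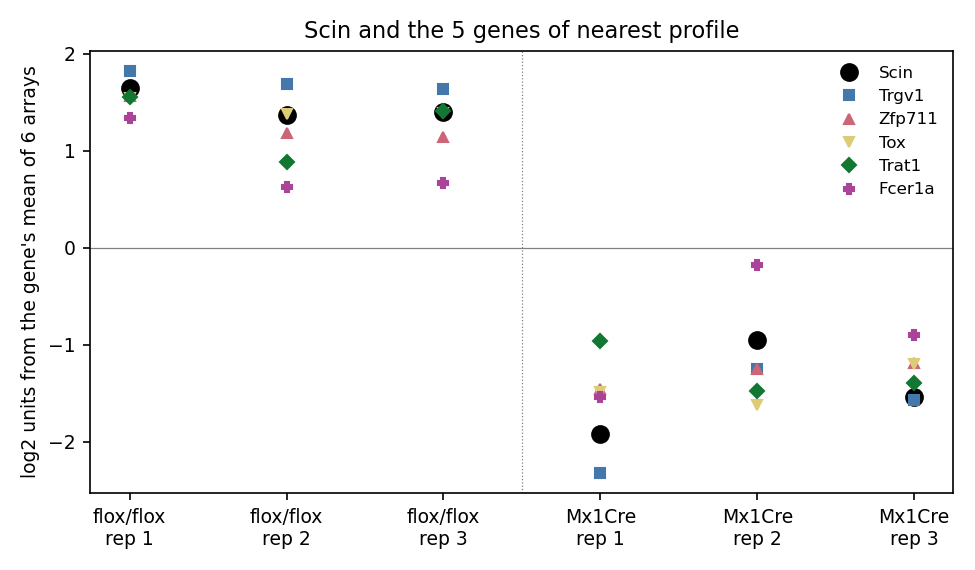
Scin (black) and the 5 genes of nearest profile in each array, in log2 units from each gene's own mean (vertical axis), with arrays labelled flox/flox left of the dotted line and Mx1Cre right of it. All 6 genes lie above 0 in the flox/flox arrays and below 0 in the Mx1Cre arrays, and Mx1Cre replicate 2 is the highest Mx1Cre array for Scin, Trgv1 and Fcer1a.

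Some markers of other blood cells moved beside Scin. Over all genes 4.91% were called, 2.63% higher and 2.28% lower, which is the background for the counts here. On lists this short, a single called gene says little about a cell type. Trat1, Tox and Fcer1a, which these lists hold, were also among the 5 genes nearest to Scin above. Their calls, and the list means they enter, are therefore not separate from that likeness. On T cell markers, the mean log2 level over 6 measured genes was 6.08 to 6.15 in the arrays labelled flox/flox and 5.61 to 5.69 in those labelled Mx1Cre, but 1 of the 6, the adaptor gene Trat1, was called (lower), and Cd3e averaged 6.52 in both groups. On NK and innate lymphoid markers the means were 7.27 to 7.33 and 6.35 to 6.72, with 3 of 7 called, Tox, Il7r and Gata3, all lower. Ncr1 and Klrb1c, which define NK cells, averaged 5.56 and 4.78, under the lower quartile of gene levels, 5.63. Nkg7, a granule gene of cytotoxic cells, was bright, at 10.9 and 10.5, with no overlap between the groups, and did not pass. Mast cell and basophil markers went both ways, 2 of 8 higher and 3 lower. There the granule protease Gzmb, which lymphocytes also make, fell 21.9-fold and Mcpt8 rose 6.81-fold. All 5 megakaryocyte and platelet markers were lower in the arrays labelled Mx1Cre, with differences from -1.32 to -0.07 log2 units. Their means per array were 7.25 to 7.31 (flox/flox) and 6.73 to 6.85 (Mx1Cre). Ranges were separate in 4 of the 5, beside 21.6% of all genes. Only the platelet chemokine gene Ppbp was called, falling 2.50-fold, while Pf4 differed by -0.54 and Itga2b by -0.33 log2 units without passing. All 6 monocyte markers were higher in the arrays labelled Mx1Cre, 5 of them called, and Ly86 was 14.2-fold higher. Neutrophil, erythroid and stromal lists had 2 of 7 called higher, 2 of 5 called lower and 1 of 7 called lower. B cell and eosinophil lists, of 5 genes each, had 0 called with limma (1 each at an unadjusted p under 0.05). The sort took lineage-negative cells without CD41, the product of Itga2b, a gate meant to remove mature blood cells and megakaryocytic cells. The part of these cells in the difference of Scin was not tested.

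For Svil the nearest profiles were those of Rasgef1b, Gm5149, Enpp5, Klf7 and Mex3a, at root mean square differences of 0.071 to 0.081 log2 units. Klf7, a Krüppel-like transcription factor, read 8.49, 7.95 and 8.21 in the arrays labelled flox/flox and 7.39, 7.68 and 7.54 in those labelled Mx1Cre. Like Svil, it was lowest in flox/flox replicate 2 and Mx1Cre replicate 1 of each group. Mex3a, which encodes an RNA-binding protein, differed by -0.70 log2 units and Rasgef1b, a Ras exchange factor, by -0.82. No gene stood among the nearest 5 of both Scin and Svil.

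The difference of Scin was not seen in the measured genes beside it in RefSeq's gene order (GRCm38.p6, used for order only, and looked up after the members' values were seen). Among the 2 protein-coding genes on each side, 3 were measured, and Arl4a, next to Scin, was not. Etv1 differed by 0.03, Lsmem1 by 0.03 and Ifrd1 by 0.005 log2 units, with limma adjusted p of 0.937, 0.944 and 0.990. Ifrd1 was bright, at 9.80 in the arrays labelled flox/flox. Etv1 and Lsmem1 averaged 5.94 and 6.19 there, below the median level over genes, 6.64, and RMA pulls dim probe sets together. Beside Svil, Mtpap, Jcad and Zfp438 differed by 0.10, 0.06 and -0.14 and did not pass. Next to Gsn, Stom, which encodes the membrane protein stomatin, rose by 0.68 log2 units (limma adjusted p = 0.0394). With up to 2 measured genes on each side of the 7 members, it was the only one called, a share close to the 4.91% of all genes.

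Other genes of actin filament turnover changed in few cases and in both directions. Of 89 genes on 5 lists 83 were measured, and 5 rose and 3 fell in the arrays labelled Mx1Cre, or 9.64% called where 4.91% of all genes were. Their median difference was -0.0064 log2 units, beside -0.01 over all genes. Only 2 of the 83 lay below the lower quartile of gene levels, so the lists are brighter than genes at large. With genes below it left out, 9 actin genes and 1095 of all the genes left were called, against 979 of 19937 before. More calls among fewer genes put the background for lists this bright above 4.91%. The 9.64% therefore stands out less than it does beside 4.91%. The count of 8 dropped to 5 when either flox/flox replicate 3 or Mx1Cre replicate 2 was left out, and was 2 with all probe sets in the fit, those being Coro7 and Marcks. These 2 were called under all 15 alternatives tried, and Tpm1, the least steady of the 8, under 6.

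Actin itself and the monomer-binding proteins, of which 9 of 10 genes were measured, had 0 called with limma (2 at an unadjusted p under 0.05). Actb, β-actin, averaged 12.90 and 12.95, and Pfn1, profilin 1, 11.8 and 11.9, with differences of 0.05 and 0.009 log2 units. Actg1 had no probe set of its own. Filament end capping genes, the role that Capg shares, also had 0 of 12 called (1 at an unadjusted p under 0.05), with differences from -0.29 to 0.20.

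In the other severing system, ADF/cofilin and its regulators, 1 of 16 genes was called, or 6.25%, near the 4.91% of all genes. Cfl1, cofilin 1, differed by -0.02 and its cofactor Wdr1 by -0.09 log2 units, and neither passed. The gene that rose was Coro7, a coronin known from the Golgi. It read 7.05, 7.33 and 7.10 in the arrays labelled flox/flox and 8.12, 8.04 and 8.06 in those labelled Mx1Cre. The Mx1Cre arrays were all higher and close together, and the difference was 0.91 ± 0.10 log2 units (limma SE, adjusted p = 0.000614).

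Of 22 bundling and side-binding genes 2 rose and 3 fell, or 22.7% called where 4.91% of all genes were. Tpm4, a tropomyosin that coats filaments, rose 2.43-fold (limma adjusted p = 0.00475). It spread from 8.29 to 9.27 in the arrays labelled flox/flox and only from 9.98 to 10.1 in those labelled Mx1Cre. Lcp1, the leukocyte bundler L-plastin, rose 1.43-fold, from 11.1 to 11.7 (limma adjusted p = 0.0165). Tpm1, another tropomyosin, fell 1.31-fold and lay near the threshold (limma adjusted p = 0.0468). Marcks and Marcksl1, protein kinase C substrates that bind PIP2 and actin, both fell. Marcks read 10.1, 10.2 and 10.2 in the arrays labelled flox/flox and 9.18, 9.09 and 8.96 in those labelled Mx1Cre. Its 2.14-fold fall (limma adjusted p = 0.000154) exceeded that of Marcksl1, at 1.34-fold (limma adjusted p = 0.0196).

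Of 24 nucleation genes 2 rose and 0 fell, or 8.33% called where 4.91% of all genes were. Both were formins, which build unbranched filaments. Diaph2 rose 2.28-fold, from 6.67 ± 0.32 to 7.86 ± 0.23 (SD, n = 3 each, limma adjusted p = 0.00249). Fmnl2, a formin of cell protrusions, rose 1.54-fold (limma adjusted p = 0.00643). Another formin, Diaph1, differed by -0.47 log2 units with no overlap between the groups and did not pass (limma adjusted p = 0.0558).

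**Figure D4:**
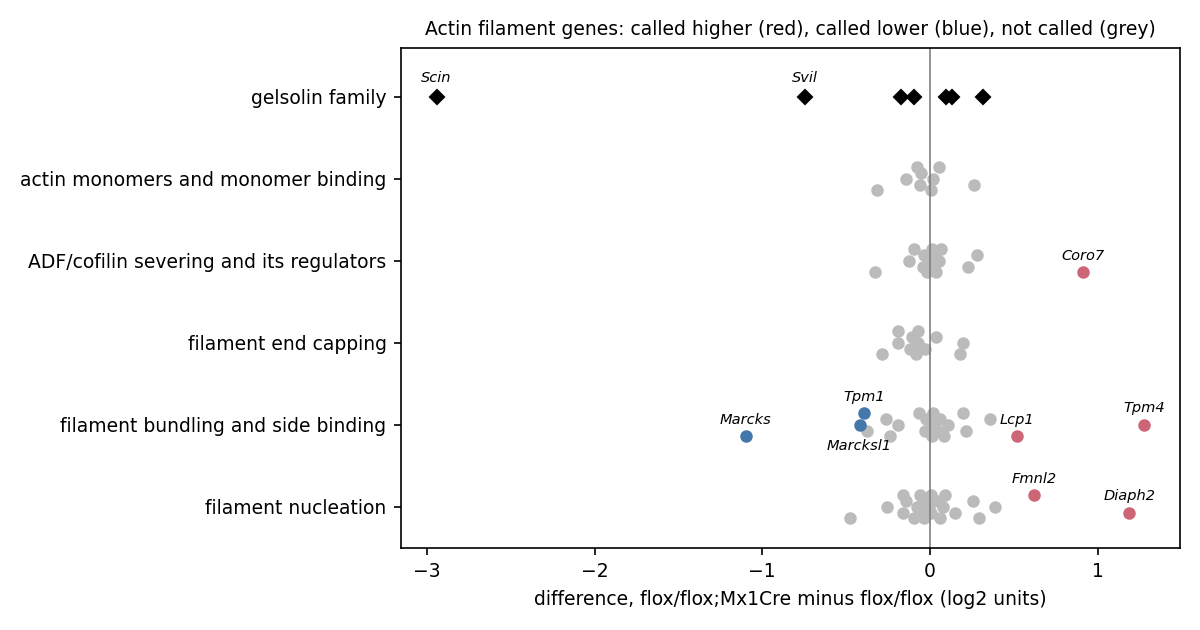
Difference of each measured gene of the 5 actin filament lists (circles) and of the 7 gelsolin family members (black diamonds), in log2 units, Mx1Cre minus flox/flox, coloured by limma call at an adjusted p under 0.05. Scin lies at -2.94, beyond every gene of the other lists, which range from -1.10 to 1.28.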

How the data were processed

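Gene expression in sorted PreGMs was measured on 1 Affymetrix mouse gene array per mouse, from 20 ng of amplified total RNA. The deposited log2 values were made by the authors with RMA and affy, per the submitters' processing notes, with versions and chip definition not given in the sources used here. RMA quantile normalizes across arrays and pulls dim probe sets together. No scan date or batch was used here. Of 34760 probe sets, 21640 had a single symbol, 1321 several and 11799 none here, and 21553 of the 21640 matched the reference table by Entrez number, changing 0 symbols. The brightest probe set stood for each of 19937 genes. The number of arrays limits the precision, and probes of similar genes can cross-react.

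Differences were tested with limma 3.58.1 (R 4.3.3; lmFit, eBayes, no replicate term) over all genes with Benjamini-Hochberg adjustment, and the fit was tested on simulated data. Members, lists, naming rule and alternatives were chosen with earlier results of these data known. The rule names every member, called actin genes (up to 3 each way per list), Actb, Actg1, Pfn1, Cfl1 and Wdr1, the 5 nearest profiles of members ranging over 1 log2 unit, and the largest marker differences. Kit, Mpo, Cd34, Prtn3, Nkg7, Diaph1, Krt8, Krt18, Cd3e, Pf4, Itga2b, Il7r, Gata3, Ncr1, Klrb1c, Cldn7, Krt19 and the neighbouring genes were named outside it. One further list of actin regulators is not reported here. Alternatives were the replicate block, leaving out each array, all probe sets, 2 other probe set choices, cyclic loess, median centring, a filter on dim genes, a trend with robust prior and array weights.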

Additional observations from a re-analysis of the deposited data

How the results depend on the processing

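Under the 15 alternatives the difference of Scin ran from -3.20 to -2.72 log2 units, within 1 SD of -2.94, and the 6 relatives kept their signs. Many of these outcomes were fixed in advance. Each member had 1 probe set and the groups were equal in size. The replicate block, all probe sets, the 2 other probe set choices, the dim filter and the trend therefore could not move a difference. With the Scin groups more than 2 log2 units apart, leaving out 1 array could not turn its sign. Svil was called in 14 of the 15, with adjusted p from 0.00381 to 0.0879, the highest when all probe sets entered the limma fit. There 0 relatives (1 at an unadjusted p under 0.05), 2 actin genes and 244 of all genes were called, because more features were tested and the spread model changed. Leaving out each array in turn gave 1 relative, 5 to 7 actin genes and 538 to 785 of all genes, against 1, 8 and 979, where fewer arrays also lower the power. Gsn, Capg, Vil1, Avil and Flii were not called under any of the 15. Replicate numbers are shared between labels. Same-numbered arrays deviated together at r = 0.19, 0.05 and 0.17 across genes, and differently numbered ones at -0.25 to 0.12. What a shared number stands for was not tested. Of the 6 arrays, 5 correlated best with their own number, but these correlations depend on one another. Each same-numbered pair counts for both of its arrays, and deviations within a label sum to 0. With the replicate block 1 relative, 9 actin genes and 1089 of all genes were called, and Svil had an adjusted p of 0.0164. Depth has no counterpart on arrays, and Vil1 and Avil are limited by their dim signal.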
